A study of Mus musculus with 12 samples.

Results

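Transforming growth factor beta (TGF-beta) is a secreted signal. Its ligands, encoded by Tgfb1, Tgfb2 and Tgfb3, are released in a latent form and must be activated outside the cell. The active ligand binds the type II receptor Tgfbr2, often with help from the co-receptor Tgfbr3 (betaglycan), and the type II receptor then phosphorylates the type I receptor Tgfbr1. Tgfbr1 phosphorylates Smad2 and Smad3, which join Smad4 and enter the nucleus to regulate genes, while Smad7 is an inhibitor that the pathway itself induces. In the developing brain the pathway is known for slowing the division of neural progenitors and for shaping neuronal and glial differentiation.

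These 10 genes were picked by name in the deposited table of 40597 loci, and each matched 1 entry that carried no other gene name, although the entry of Tgfb3 gives the same coordinate span as that of a neighbouring gene. The table describes primary neurospheres, floating clusters of neural stem and progenitor cells, whose cells came from the fetal hypothalamus of the C57Bl/6 strain, taken at age E14.5. For 4 hours, at passage 3, they were exposed either to the synthetic glucocorticoid dexamethasone (100 nM) or to the same volume of its ethanol vehicle. There were 4 groups of 3 libraries: male vehicle, male dexamethasone, female vehicle and female dexamethasone. The labels call the 3 libraries of a group biological replicates but do not say whether they came from separate animals, litters or cultures, so the p-values measure only the spread between these libraries. No group carried a labelled genetic change, and neurosphere culture keeps mainly cells that grow in suspension. In such bulk samples, fewer cells of a type and less RNA per cell cannot be told apart.

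Values are FPKM, fragment numbers scaled to transcript length and to library size, which allow levels of different genes to be compared. FPKM hold no counts, so the depth behind a value is unknown and no counting interval can be given. Protein-coding loci summed to 397412 to 453923 FPKM per library, and 13755 to 14826 loci reached 1 FPKM. Loci without a gene name held 11.6% to 38.6% of all FPKM in 10 libraries, but 53.1% in male dexamethasone library 2 and 75.0% in male vehicle library 3. Of the markers checked, all 15 of neural stem cells and all 8 of astrocytes averaged at least 1 FPKM, as did 7 of 8 of the oligodendrocyte lineage and 4 of 10 of neurons. Among 8 endothelial markers only Flt1 (2.08 FPKM) did, and among 10 mural or fibroblast markers only Acta2 (27.9 FPKM). The microglial genes C1qa and C1qb and the fibroblast gene Lum are listed at 0 in every library.

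The treatment labels were checked with genes known to respond to glucocorticoids. Fkbp5, whose product is a co-chaperone for that receptor, lay between 15.6 and 25.5 FPKM in the 6 vehicle libraries and between 94.9 and 157 FPKM in the 6 dexamethasone libraries. Klf9, Tsc22d3 and Per1 were also separated without overlap, and all 4 were called higher in each sex (adjusted p of at most 0.0136).

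Smad3, Smad4 and Smad2 had the highest levels of the 10 members, while the inhibitor Smad7 was among the lowest. Smad3 averaged 59.3 FPKM over the 12 libraries, Smad4 42.5, Smad2 29.2, Tgfbr1 12.6, Tgfb2 4.95 and Tgfbr2 1.64 FPKM. Tgfb3 (0.885 FPKM), Smad7 (0.795 FPKM), Tgfbr3 (0.475 FPKM) and Tgfb1 (0.193 FPKM) averaged less than 1 FPKM. From Smad4 down to Tgfbr2 each gene lay above the next in all 12 libraries, with ranges that did not overlap. Neighbours elsewhere in the order did overlap: Smad3 exceeded Smad4 in 10 of 12 libraries, Tgfbr2 exceeded Tgfb3 in 10, and Tgfb3 exceeded Smad7 in only 6.

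**Figure D1:**
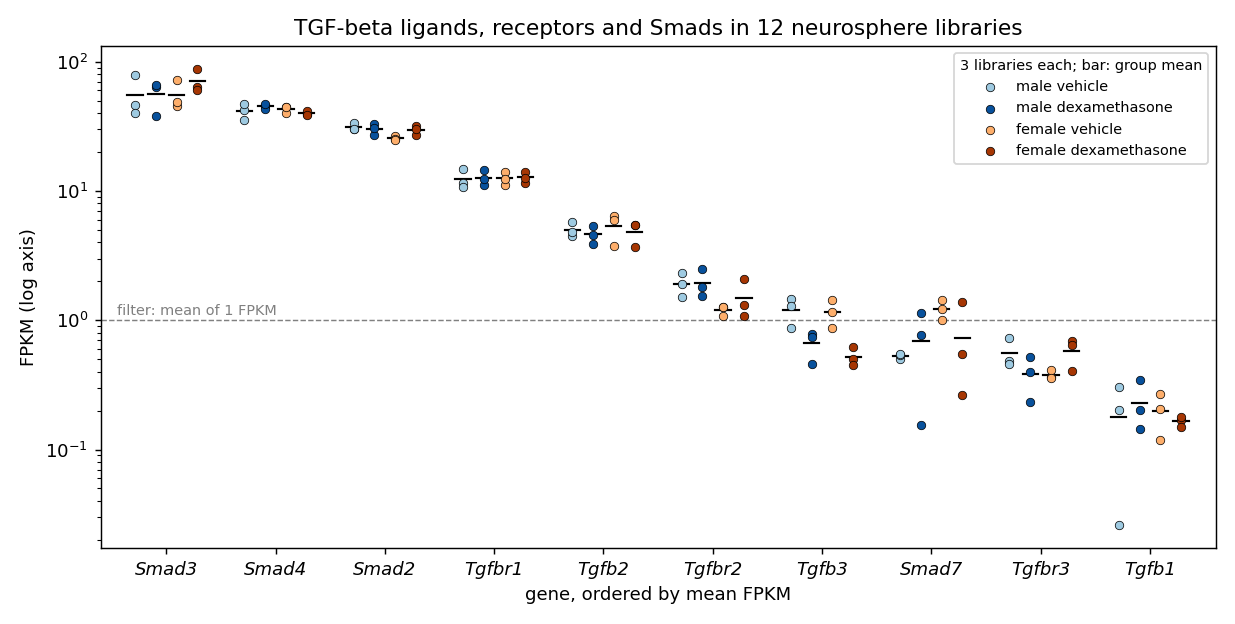
FPKM of the 10 genes on a log axis, ordered by mean, with 1 point per library (3 per group) and a bar at each group mean. Smads 2, 3 and 4 lie between 24.6 and 88.1 FPKM in every library, and only Tgfb3 has every dexamethasone library below every vehicle library.

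For 5 members an upstream sequence was found in the RefSeq promoter table (GRCm38.p6): Tgfb1, Tgfb2, Tgfbr1, Tgfbr2 and Smad3. The sequence before the start of Tgfb2 is shown because this gene supplied most of the ligand transcript here. It lies at chr1:186705990-186706239 on the minus strand, and the capitals mark CAGAC, the short element that Smad3 and Smad4 are known to bind.
Tgfb2 upstream: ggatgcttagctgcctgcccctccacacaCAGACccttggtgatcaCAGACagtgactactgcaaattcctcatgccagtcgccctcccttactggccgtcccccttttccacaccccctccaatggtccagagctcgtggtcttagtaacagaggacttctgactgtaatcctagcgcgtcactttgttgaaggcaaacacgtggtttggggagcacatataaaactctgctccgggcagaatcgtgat
The 2 matches begin 221 and 204 bases before the start. With both strands searched, CAGAC is found in 42.2% of the 32851 upstream windows of 250 bases, so it is common. One match each was found for Tgfbr2 and for 1 of the 2 Tgfbr1 windows, and none for Tgfb1 or Smad3. The glucocorticoid receptor motif, GNACA and TGTNC separated by NNN and searched on both strands, is in 0.387% of all windows and in none of the 6 windows of these members, which says only that these letters are not there.

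Whether dexamethasone changed the pathway's own transcripts within 4 hours was asked in each sex and over both. Genes averaging at least 1 FPKM were tested as log2(FPKM + 1) with limma, a linear model fitted across all 14931 such loci, and called at a Benjamini-Hochberg adjusted p under 0.05. Differences on this scale understate the change of low genes. Of the 10 members, 6 passed the filter: Tgfb2, Tgfbr1, Tgfbr2, Smad2, Smad3 and Smad4. None of the 6 was called in the averaged effect, against 1.53% of all tested loci, and their adjusted p lay between 0.632 and 0.964. None was called in males (0.315% of all loci called) or in females (0.482%), and none had an unadjusted p under 0.05 in these 3 comparisons. The median averaged difference of the 6 was 0.05, and that of all tested loci was -0.01.

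The 4 members below the filter were fitted in a model of all 27636 loci above 0 in at least 1 library. There too, limma called 0 of the 10 members in any comparison. Of all 27636 loci it called 0.774% in the averaged effect, 0.152% in males, 0.253% in females, 0.0181% for the difference between the sexes in effect and 0.0507% between the sexes in vehicle. At an unadjusted p under 0.05 the averaged effect held 1 of the 10, Tgfb3 (adjusted p = 0.115), a share near the 10.1% of all loci. In this fit Tgfb3 also had an unadjusted limma p under 0.05 in males (0.0201) and in females (0.00768). Smad2 did so in females (0.0453), unlike in the fit with the filter (0.0525). The shares of all loci for each sex in this fit were not computed. Of the 10 members, 7 had a positive and 3 a negative averaged difference, with a median of 0.01.

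**Figure D2:**
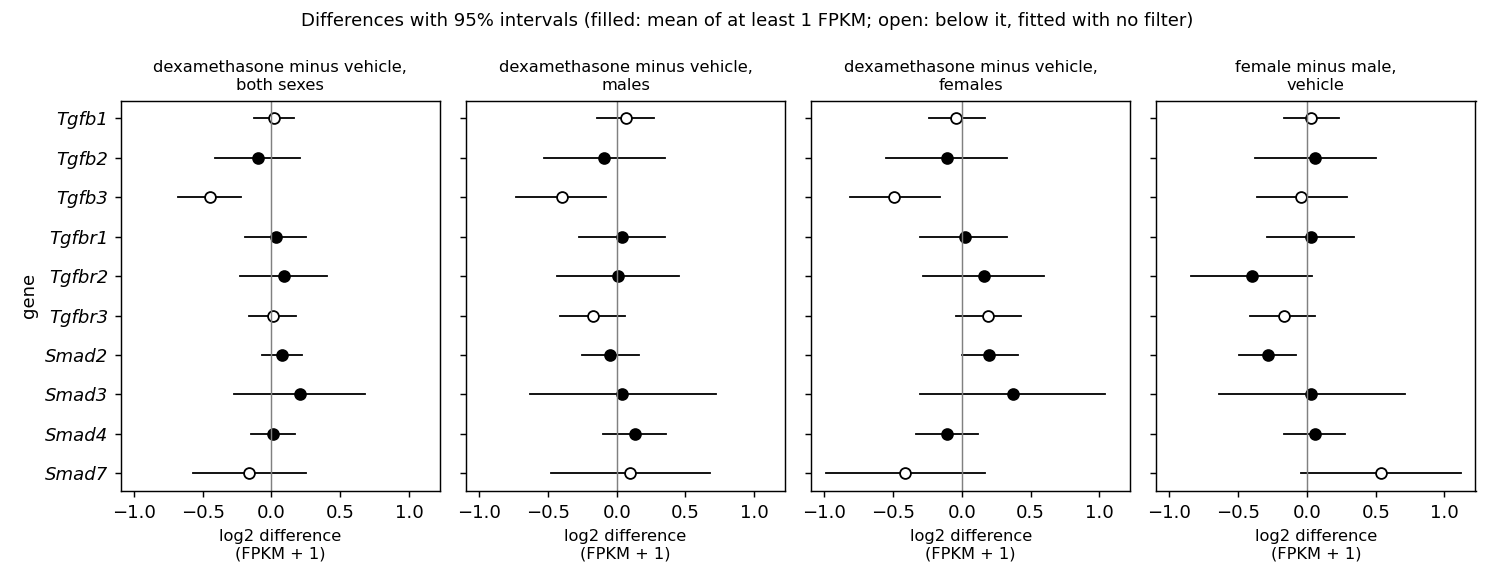
Log2 differences of log2(FPKM + 1) with 95% intervals from limma for the 10 genes: dexamethasone minus vehicle over both sexes, in males and in females, and female minus male in vehicle. Filled points passed the filter and open points were fitted without it; the averaged interval excludes 0 only for Tgfb3.

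Among the ligands, Tgfb2 (chromosome 1, 186622792 to 186705989) was the most abundant and made up 69.5% to 90.1% of the summed FPKM of the 3 ligand genes in a library. It stood at 4.46, 5.73 and 4.79 FPKM in male vehicle libraries 1, 2 and 3 and at 3.91, 5.38 and 4.60 FPKM in the male dexamethasone libraries of the same numbers. In female libraries it stood at 3.72, 6.35 and 5.98 FPKM with vehicle and at 3.67, 5.41 and 5.42 FPKM with dexamethasone. The groups overlapped widely, although each dexamethasone library was below the vehicle library of its own number in 6 of 6 cases. The labels do not say that equal numbers are paired, and the share of all loci with this pattern was not computed. The averaged log2 difference was -0.10 (SE 0.14, adjusted p = 0.780), with a 95% interval from -0.41 to 0.21. With equal replicate numbers of a sex fitted as a block, limma gave an adjusted p of 0.247.

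Tgfb3 (chromosome 12, 86056745 to 86079041, minus strand) was lower in dexamethasone libraries in both sexes, without a call when libraries were not paired by number. It stood at 1.45, 0.868 and 1.30 FPKM in male vehicle libraries and at 0.785, 0.462 and 0.740 FPKM in male dexamethasone libraries. Female vehicle libraries held 1.43, 1.15 and 0.869 FPKM and female dexamethasone libraries 0.625, 0.498 and 0.448 FPKM. Every dexamethasone library was below every vehicle library, and the mean over 6 libraries was 0.593 ± 0.146 FPKM (SD) with dexamethasone against 1.18 ± 0.262 FPKM with vehicle, or 49.6% lower.

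Such a separation of 6 from 6 libraries in this direction was found at 0.532% of the 27636 loci above 0, and at 0.574% of the loci averaging 0.5 to 1 FPKM. In the fit with no filter the averaged log2 difference of Tgfb3 was -0.45 (SE 0.10, 95% interval -0.68 to -0.22, unadjusted p = 0.00161, limma adjusted p = 0.115). An exact two-sided permutation test of the treatment labels within each sex gave p = 0.005, the smallest that 400 splits allow and the value that any gene with this separation must give. It was computed for each of the 10 members, and the others had p of 0.285 or more. In males the difference was -0.40 (SE 0.15) and in females -0.49 (SE 0.15), and the difference between the sexes was -0.08 (SE 0.21, limma adjusted p = 1). With any 1 of the 12 libraries left out, the averaged difference stayed between -0.50 and -0.40 and its adjusted p between 0.0958 and 0.249. With equal replicate numbers of a sex fitted as a block and no filter, limma called Tgfb3 (adjusted p = 0.0397). That fit was chosen after seeing the data, and the labels do not say that equal numbers share a culture.

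Tgfb3 lies opposite another gene. Its last 5149 bases, 23.1% of the gene, overlap the 3′ end of Ttll5, a tubulin-modifying enzyme gene on the plus strand, and the deposited table lists the 2 genes separately but with 1 shared coordinate span. Ttll5 averaged 6.51 FPKM. It ranged from 5.70 to 7.91 FPKM in vehicle and from 4.91 to 7.13 FPKM in dexamethasone libraries, with an averaged log2 difference of -0.21 (SE 0.10, adjusted p = 0.397). Libraries were made with a stranded kit, but the sources used here do not say whether counting used strand, and the part of Ttll5 reads in the Tgfb3 values was not tested.

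**Figure D3:**
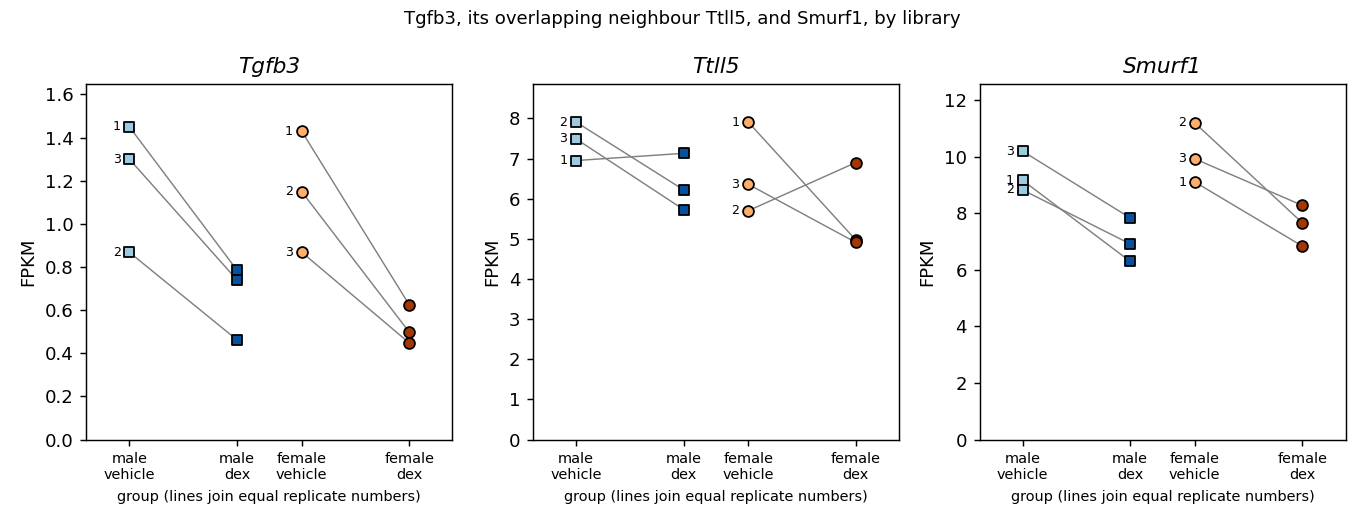
FPKM of Tgfb3, of Ttll5, which overlaps it on the other strand, and of Smurf1, by group, with 1 point per library and lines joining libraries of equal replicate number. Tgfb3 lies at 0.868 to 1.45 FPKM with vehicle and 0.448 to 0.785 FPKM with dexamethasone, whereas the Ttll5 groups overlap.

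Tgfb1 (chromosome 7, 25687002 to 25705077) was the lowest of the 10 genes. Vehicle libraries ranged from 0.0259 to 0.305 FPKM with a median of 0.205, and dexamethasone libraries from 0.143 to 0.344 FPKM with a median of 0.174. The groups overlapped, and male vehicle library 2 alone lay below 0.1 FPKM. Tgfb1 is a gene that microglia are known to express, and the microglial markers C1qa and C1qb are listed at 0 in all 12 libraries.

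Among the receptors, Tgfbr1 (chromosome 4, 47353222 to 47414931), the type I kinase, supplied 81.5% to 90.4% of the summed FPKM of the 3 receptor genes. It ranged from 10.7 to 14.8 FPKM in the 6 vehicle libraries (median 12.0) and from 11.2 to 14.5 FPKM in the 6 dexamethasone libraries (median 12.5). The groups lay on top of each other, with an averaged log2 difference of 0.03 (SE 0.10, 95% interval -0.19 to 0.25).

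Tgfbr2 (chromosome 9, 116084293 to 116175360), the ligand-binding type II receptor, was far scarcer. Male libraries held 1.91, 1.52 and 2.34 FPKM with vehicle and 1.55, 1.81 and 2.49 FPKM with dexamethasone. Female libraries held 1.27, 1.08 and 1.26 FPKM with vehicle and 1.31, 2.10 and 1.07 FPKM with dexamethasone. The averaged log2 difference was 0.09 (SE 0.14, 95% interval -0.23 to 0.40). The co-receptor gene Tgfbr3 (chromosome 5, 107106570 to 107289629) ranged from 0.235 to 0.733 FPKM. Its log2 difference was -0.17 (SE 0.11) in males and 0.19 (SE 0.11) in females, opposite signs whose difference of 0.36 (SE 0.15) had an unadjusted p of 0.0349 and was not called (limma adjusted p = 1).

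Among the receptor-regulated Smads, Smad3 (chromosome 9, 63646767 to 63757994) varied most in absolute level. It stood at 46.4, 78.3 and 40.3 FPKM in male vehicle and at 64.0, 66.4 and 37.8 FPKM in male dexamethasone libraries. Female libraries held 45.1, 48.7 and 71.6 FPKM with vehicle and 64.2, 60.7 and 88.1 FPKM with dexamethasone. Libraries of 1 group differed by more than the group means did. The averaged log2 difference of 0.21 was the largest of the 6 tested members, with an SE of 0.21 and a 95% interval from -0.27 to 0.68 (adjusted p = 0.695). Smad3 took 55.0% to 74.5% of the summed FPKM of Smad2 and Smad3.

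Of 10636 other tested protein-coding loci, those whose log2 values followed Smad3 most closely over the 12 libraries were Cdk5, a neuronal kinase gene, Trim9, a ubiquitin ligase gene, and St8sia5, a sialyltransferase gene. After each gene's mean was subtracted, their root mean square differences from Smad3 were 0.179, 0.193 and 0.206, while Smad3 itself varied by 0.368 about its mean. Trim9 ranged from 22.2 to 69.5 FPKM and Cdk5 from 18.4 to 35.8 FPKM. St8sia5 ranged only from 0.276 to 1.55 FPKM, near the filter, where log2(FPKM + 1) understates changes, so its likeness to Smad3 is less certain.

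Smad2 (chromosome 18, 76241580 to 76310963) kept to a narrow range. It stood at 30.4, 33.4 and 30.1 FPKM in male vehicle and at 33.1, 27.0 and 30.9 FPKM in male dexamethasone libraries. Female libraries held 26.8, 25.3 and 24.6 FPKM with vehicle and 31.7, 27.0 and 30.2 FPKM with dexamethasone. The female dexamethasone libraries all exceeded the female vehicle libraries, with a log2 difference of 0.20 (SE 0.09, adjusted p = 0.621), whereas the male groups overlapped. The difference between the sexes in this effect, 0.25 (SE 0.13), was not called (unadjusted p = 0.0850), against 0.0335% of all loci called in that comparison. The 2 members without overlap between female groups, Smad2 and Tgfb3, compare with 10.4% of loci in either direction, and the single such member in males, Tgfb3, with 9.24%.

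Smad4 (chromosome 18, 73639009 to 73703780), the partner shared with the BMP pathway, was the steadiest member, with a coefficient of variation of 8.57% over the 12 libraries. It ranged from 35.2 to 47.3 FPKM with vehicle and from 38.9 to 47.2 FPKM with dexamethasone. The averaged log2 difference was 0.01 (SE 0.07, 95% interval -0.15 to 0.17), and its sign turned under quantile normalization. It averaged 2 differences of opposite sign, 0.13 (SE 0.10) in males and -0.11 (SE 0.10) in females. The difference between these was -0.23 (SE 0.14, unadjusted p = 0.133, limma adjusted p = 1).

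Smad7 (chromosome 18, 75367529 to 75395935), the inhibitor, was low and the most variable member, with a coefficient of variation of 54.9%. It stood at 0.501, 0.541 and 0.547 FPKM in male vehicle libraries and at 1.13, 0.156 and 0.771 FPKM in male dexamethasone libraries. Female vehicle libraries held 1.44, 1.01 and 1.23 FPKM and female dexamethasone libraries 1.39, 0.263 and 0.546 FPKM. Both dexamethasone groups spread widely, and library 2 was the lowest in each. The averaged log2 difference was -0.16 (SE 0.18, 95% interval -0.57 to 0.25).

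The sexes were compared in vehicle cultures. At 4 of the 10 genes the 3 female and 3 male libraries did not overlap, against 7.84% of loci above 0: Smad2, Tgfbr2 and Tgfbr3 were lower and Smad7 higher in the female libraries. Smad2 had a log2 difference of -0.28 (SE 0.09, unadjusted p = 0.0126, limma adjusted p = 0.892) and Tgfbr2 one of -0.40 (SE 0.20). Smad7 averaged 1.23 ± 0.214 FPKM in female and 0.530 ± 0.0249 FPKM in male vehicle libraries (SD, n = 3), a log2 difference of 0.54 (SE 0.26, unadjusted p = 0.0647, limma adjusted p = 0.932). No member was called, nor were most genes: 0.0737% of tested loci were called between the sexes. Markers also differed here without a call. The 8 astrocytic markers had a median log2 difference of 0.69 (0.09 to 1.40), and the 15 neural stem cell markers 0.14 (-0.25 to 0.53). Among oligodendrocyte lineage markers, the 7 tested had a median of 0.98 (-0.17 to 1.22). The part of such shifts in the 4 genes was not tested. With dexamethasone the female and male libraries overlapped for 9 of the 10 genes, these 4 among them. The exception was Smad4, at 39.3, 41.5 and 38.9 FPKM in female and 45.2, 43.4 and 47.2 FPKM in male libraries, against 6.26% of loci without overlap in either direction.

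The surrounding pathway was described with 126 further genes in 8 lists, of which 93 passed the filter. In the averaged effect 1 of the 93 was called, lower, or 1.08% against 1.53% of all loci, and 0 were called in males, in females or between the sexes. The median difference of the 93 was -0.11, below that of all loci (-0.01), and 19 of them (20.4%) had an unadjusted p under 0.05, 13 of them lower, against 13.6% of all loci.

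**Figure D4:**
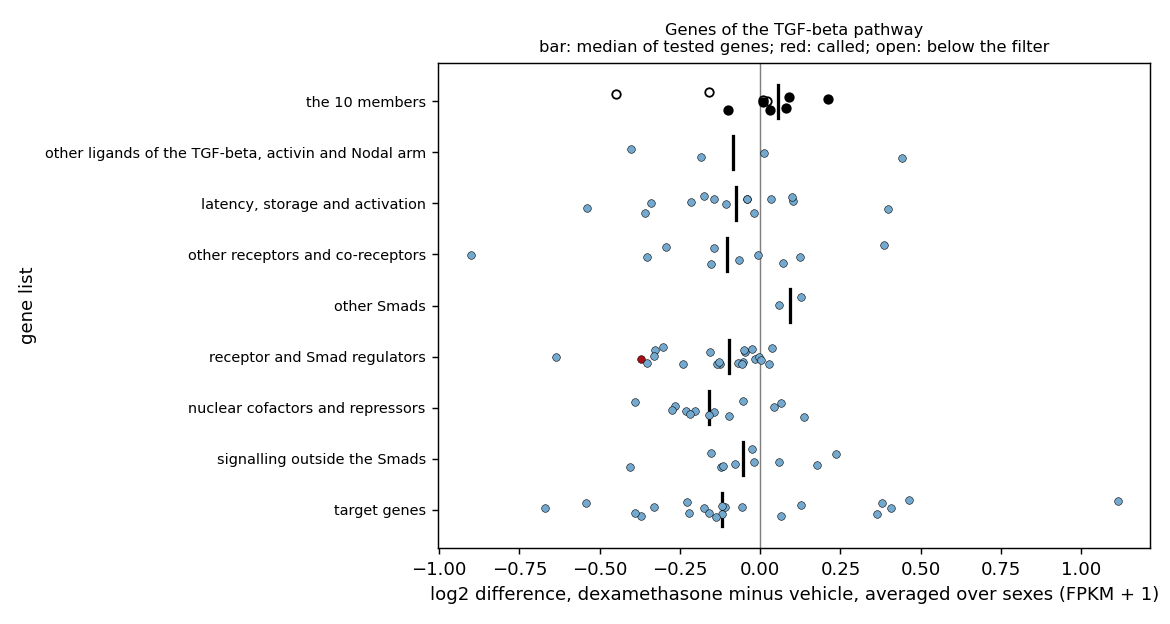
Averaged log2 differences (dexamethasone minus vehicle) of the 10 members and of the tested genes of 8 pathway lists, with 1 point per gene and a bar at the median of tested genes. The red point is Smurf1 at -0.37, the only called gene, and the list medians lie between -0.16 and 0.09.

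Smurf1 (chromosome 5, 144876495 to 144965847) encodes a ubiquitin ligase that Smad7 is known to bring to the receptors. It fell from 9.74 ± 0.888 to 7.31 ± 0.741 FPKM (SD over 6 libraries each), a log2 change of -0.37 (SE 0.08, adjusted p = 0.0475). Vehicle libraries ranged from 8.83 to 11.2 FPKM and dexamethasone libraries from 6.30 to 8.28 FPKM, with no overlap. Such a separation in this direction was found at 0.532% of the 27636 loci above 0, which include loci below the filter. Smurf1 was named because it was called from these same values, so the separation adds no support to the call. The call was narrow: with 1 library left out it held only without male dexamethasone library 3, and the other 11 fits gave adjusted p of 0.0527 to 0.128. It was also lost with a pseudocount of 0.1, no filter, a minimum mean of 5 FPKM, median scaling or a robust fit (0.0501 to 0.0928). In each sex alone it was not called (adjusted p = 0.364 in males and 0.333 in females). Markers moved in the same averaged comparison: of 15 neural stem cell markers Msi1 (-0.64), Nr2e1 (-0.57) and Egfr (-0.35) were called lower, and of 8 oligodendrocyte lineage markers Cspg4 (0.76) was called higher. The median difference of the 15 was -0.15, and Sox9 (-0.76, adjusted p = 0.0912) and Sox2 (-0.42, adjusted p = 0.0915) were not called. Their summed level, at 6343 to 7735 FPKM in female vehicle, 6047 to 7766 in female dexamethasone, 6698 to 7389 in male vehicle and 6140 to 6913 FPKM in male dexamethasone libraries, is mostly Fabp7 (mean 3503 FPKM) and Vim (2497 FPKM) and says little of the other markers. The part of such shifts in the Smurf1 and Tgfb3 values was not tested. The other 21 tested members of the 23 receptor and Smad regulators were not called. Among the most abundant of them, Strap, which holds Smad7 at the receptor, stood at 161 FPKM and the deubiquitinase gene Usp9x at 70.1 FPKM. Stub1 shares its locus with the microRNA gene Mir3082 and ranged from 61.1 to 1674 FPKM.

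Of 12 other ligand genes of the TGF-beta, activin and Nodal arm, 4 passed the filter and 0 were called. Gdf11, which restrains neural progenitor expansion, was the highest at 10.4 FPKM, with a log2 difference of -0.40 (SE 0.10, adjusted p = 0.0930). Inhbb, an activin subunit gene, averaged 5.04 FPKM, about the level of Tgfb2. The locus that joins Gdf1 and Cers1 averaged 5.99 FPKM.

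Genes of latency, storage and activation included some of the most abundant of the pathway. The integrin genes Itgb1 (209 FPKM), Itgav (69.1 FPKM) and Itgb8 (62.7 FPKM) led this list, and the integrin of Itgav and Itgb8 products is known to activate latent TGF-beta in the brain. Their averaged differences were -0.04 (SE 0.07), 0.10 (SE 0.16) and 0.03 (SE 0.13), and that of Itgb8 turned negative under quantile normalization. None of the 14 tested genes of 24 was called.

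Of 14 other receptors and co-receptors 10 were tested and 0 called. Bmpr1a, a BMP type I receptor gene, stood at 49.8 FPKM, the joined locus of Eng and Ak1 at 48.0 FPKM, and Cd109, a TGF-beta co-receptor that inhibits signalling, at 38.1 FPKM. Of the 4 other Smads, Smad1 (16.1 FPKM) and the locus of Smad5 with its antisense RNAs (117 FPKM) were tested, with differences of 0.06 (SE 0.05) and 0.13 (SE 0.10), neither called.

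Of 14 nuclear cofactors and repressors 13 were tested and 0 called, with Zeb1, a Smad-binding repressor gene, at 176 FPKM, Ctbp1 at 88.3 FPKM and the joined locus of Ctbp2 and Fgfr2 at 74.3 FPKM. All 10 genes of signalling outside the Smads were tested and 0 called. Rhoa, a small GTPase gene, stood at 105 FPKM, the TGF-beta-activated kinase gene Map3k7 at 40.8 FPKM and Mapk8 at 23.4 FPKM.

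Of 29 target genes 21 were tested and 0 called. Vim, an intermediate filament gene that neural progenitors express, stood at 2497 FPKM with a difference of -0.14 (SE 0.08), Id3 at 122 FPKM with -0.18 (SE 0.12) and the cell cycle inhibitor gene Cdkn1a at 77.4 FPKM with 0.36 (SE 0.23). The list median was -0.12, and 7 of the 21 had an unadjusted p under 0.05, 3 higher and 4 lower, against 13.6% of all tested loci. The 3 with the lowest p, none called, are named here after their values were seen. Myc, a proliferation gene that TGF-beta is known to repress, had a difference of -0.67 (SE 0.19, adjusted p = 0.167), and Fn1, the fibronectin gene, one of -0.54 (SE 0.15, adjusted p = 0.150). Ctgf, a matricellular protein gene, averaged 0.766 ± 0.368 FPKM with vehicle and 2.91 ± 1.05 FPKM with dexamethasone (SD over 6 libraries each), a log2 difference of 1.11 (SE 0.24) that missed the threshold (adjusted p = 0.0566).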

How the data were processed

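The authors deposited FPKM for 40597 loci in 12 libraries, 1 column each. The submitters' processing notes name Cuffdiff 2.2.1, Cufflinks 2.2.1, TopHat2 2.0.9 and the GRCm38 build, with no order. How libraries were scaled, which annotation was used and whether counting used strand were not found in these sources. Per the labels, a stranded kit was used on total RNA.

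From the deposited FPKM, log2(FPKM + 1) was fitted with limma 3.58.1 in R 4.3.3 across the 14931 loci averaging 1 FPKM or more: 1 mean per group, contrasts, eBayes with a mean-variance trend, two-sided, Benjamini-Hochberg adjustment over all loci. The averaged effect weights both sexes equally. The 4 members below that mean were read from a fit with no filter (27636 loci). Code was tested on simulated data. Gene coordinates are those of GENCODE M21 (GRCm38), matched by Ensembl identifier and counted from 1.

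The members and lists were chosen with earlier results of these data known. Named are all 10 members, every pathway gene called in any of 5 contrasts, the 3 most abundant genes of each pathway list, 4 glucocorticoid targets, and the 3 genes most like the tested member with the largest averaged difference. Ctgf, Myc, Fn1 and the cell type markers were named outside this rule. Alternatives covered pseudocount, filter, scaling, variance model, named loci, replicate block, libraries fitted and leaving out each library.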

Additional observations from a re-analysis of the deposited data

How the results depend on the processing

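None of the 6 tested members was called under any planned setting. The 4 below the filter were fitted with no filter and, chosen after seeing the data, with no filter plus a block, a pseudocount of 0.1 or 1 library left out, and Tgfb3 and Smad7 with a minimum mean of 0.5 FPKM; other scalings were not run for them. Of 1038 alternative values for the members, 970 kept direction and side of the threshold, 67 changed sign without a call and 1 became a call. The labels do not say that equal replicate numbers share a culture; deviations of same-numbered libraries of a sex correlated at 0.0819 to 0.167 across loci, each higher than with the other numbers. A replicate block gave 804 averaged calls (420 higher, 384 lower), 148 in males, 187 in females, 8 for the interaction and 12 for sex, against 229 (171 higher, 58 lower), 47, 72, 5 and 11. With that block and no filter, chosen after seeing the data, Tgfb3 was called (log2 -0.45, adjusted p = 0.0397); with the block Gdf11 (adjusted p = 0.0218) and Cd109 (0.0155) were too. Fitting only the groups compared gave 18 calls in males, 33 in females and 20 for sex. With 1 library left out the counts were 146 (without female dexamethasone library 1) to 215 averaged, 28 (without male vehicle library 2) to 49 in males, 31 (without female dexamethasone library 1) to 74 in females, 4 to 14 (without female vehicle library 1) for the interaction and 9 to 23 (without female vehicle library 1) for sex.

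Quantile normalization turned Smad4 (-0.0143), Itgb8 (-0.0171), Strap (-0.0429) and Ctbp1 (-0.0196) in the averaged effect, Tgfb2 in the interaction (0.00285) and Tgfb2 (-0.00989) and Tgfbr1 (-0.0184) for sex; median scaling turned Tgfbr1 for sex (-0.0037). None of these was called. Leaving out 1 library turned the sign of uncalled log2 differences over these ranges. In the averaged effect: Tgfb1 -0.033 to 0.0537, Tgfbr1 -0.0175 to 0.0923, Tgfbr3 -0.0245 to 0.0518, Smad4 -0.0451 to 0.0593, Gdf1 -0.102 to 0.131, Itgav -0.0162 to 0.233, Itgb8 -0.0481 to 0.139, Eng -0.0175 to 0.168, Stub1 -1.42 to 0.0595, Strap -0.0217 to 0.0809, Map3k7 -0.0576 to 0.0246. In males: Tgfb1 -0.0295 to 0.144, Tgfb2 -0.186 to 0.00278, Tgfbr1 -0.0527 to 0.167, Tgfbr2 -0.116 to 0.113, Smad2 -0.11 to 0.0319, Smad3 -0.147 to 0.325, Smad7 -0.0959 to 0.346. In females: Tgfb1 -0.0845 to 0.00504, Tgfb2 -0.311 to 0.0418, Tgfbr1 -0.0602 to 0.0995, Tgfbr2 -0.00908 to 0.283. Interaction: Tgfb2 -0.219 to 0.134, Tgfb3 -0.18 to 0.0315, Tgfbr1 -0.149 to 0.0704, Tgfbr2 -0.0208 to 0.274. Sex: Tgfb1 -0.0668 to 0.107, Tgfb2 -0.0571 to 0.263, Tgfb3 -0.153 to 0.0577, Tgfbr1 -0.0643 to 0.155, Smad3 -0.167 to 0.315, Smad4 -0.0566 to 0.152. The causes were not tested. Depth is unknown, which limits the 4 members under 1 FPKM.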
